A study of Homo sapiens with 12 samples.

Results

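Described here are the genes of 6 major heat shock protein chaperones, HSP90AA1, HSP90AB1, HSPA8, HSPA5, HSPD1 and HSP90B1. The measure was the stretches of their RNA, introns included, that protein shielded from ribonuclease. Sites were selected on position alone: a site belonged to a gene if its midpoint lay in the hg19 span of the gene on the gene's strand. This gave 746 of 513381 sites over 6 lists. The 6 genes were picked with earlier results of these lists known, so the values below describe them and lend no independent support to a pattern. All 6 genes had sites in every list and passed the filter on low values.

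The sites came from protein interaction profile sequencing of HEK293T, a transformed cell line from human embryonic kidney. Cells were cross-linked with 1% formaldehyde, lysates were digested with a ribonuclease, and RNA that protein shielded survived to be sequenced. The nuclease was either RNase ONE, specific for single-stranded RNA (called ssRNase), or RNase V1, specific for paired RNA (called dsRNase). For each nuclease there were 3 footprint libraries and 3 digestion controls in which protein was removed before the nuclease was added, and cells of all 4 groups had the same cross-linking. The authors set each footprint against its digestion control with the same number, so the 12 libraries entered as 3 ssRNase lists and 3 dsRNase lists of protected sites. The lists carry no read counts, so the depth behind a site is unknown. Nothing in the labels says that replicates were separate cultures, so p-values measure only the spread between these lists, which may be technical.

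Heat shock protein chaperones bind unfolded or partly folded proteins and use ATP to hold, fold or hand them on. HSP90AA1 and HSP90AB1 are the stress-inducible and the constitutive cytosolic HSP90, and HSPA8 is the constitutive cytosolic HSP70, which passes clients to HSP90. HSPA5, also called BiP, and HSP90B1, also called GRP94, are the HSP70 and HSP90 of the endoplasmic reticulum and are induced when unfolded proteins build up there. HSPD1 is the HSP60 chaperonin of the mitochondrial matrix.

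The ends of the coding sequences bear on where the proteins go and what binds them, and are printed here. They are from the principal GENCODE v29 transcripts (GRCh38), 5′ to 3′, with the last 4 codons before the stop codon in capitals. In the 3 cytosolic chaperones these codons encode the C-terminal signal that tetratricopeptide-repeat co-chaperones bind, and in the 2 of the endoplasmic reticulum the signal that retains the protein there. HSPD1 carries neither.
HSP90AA1: gacacatcacgcatgGAAGAAGTAGACtaa
HSP90AB1: gatgcgtctcgcatgGAAGAAGTCGATtag
HSPA8: tcagggcccaccattGAAGAGGTTGATtaa
HSPA5: gaggatacagcagaaAAAGATGAGTTGtag
HSP90B1: gaatctacagctgaaAAAGATGAATTGtaa
HSPD1: ggaggtggtatgggaGGTGGCATGTTCtaa

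The cytosolic HSP90 pair is the closest related, and its longest identical run of coding sequence bears on whether a short site can be given to one gene. That run is 23 nt, in capitals in the lines that follow, with the diverging flanks in lower case.
HSP90AA1: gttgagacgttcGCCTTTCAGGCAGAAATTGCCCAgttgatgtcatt
HSP90AB1: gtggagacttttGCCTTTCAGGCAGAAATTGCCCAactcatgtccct
No stretch of 30 nt of any of the 6 coding sequences was found in a transcript of another protein-coding gene of GENCODE v29. Pseudogene copies were another matter. The share of 30 nt stretches that also occurred in a transcript of another gene was 59.5% for HSP90AA1, 51.3% for HSP90AB1, 54.1% for HSPA8, 33.8% for HSPA5, 68.3% for HSPD1 and 28.5% for HSP90B1. HSPD1 shared stretches with 16 pseudogenes and HSPA8 with 13, against 2 each for HSPA5 and HSP90B1. How the authors placed reads with several matches is not stated in the labels or files, so site numbers in these genes are uncertain to that extent, and its part in the results was not tested.

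The 6 genes held 184, 48 and 97 sites in ssRNase replicates 1, 2 and 3 and 137, 140 and 140 sites in dsRNase replicates 1, 2 and 3. The dsRNase lists were nearly level with each other, whereas the ssRNase lists ranged widely and lay on both sides of them. The whole lists held 209922, 57481 and 172079 sites with ssRNase and 23925, 28413 and 21561 with dsRNase. Sites of the 6 genes therefore made up 0.1005%, 0.0802% and 0.0527% of the protected bases of the ssRNase lists and 0.667%, 0.598% and 0.834% of those of the dsRNase lists. The dsRNase shares lay above all ssRNase shares.

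The stress-inducible cytosolic HSP90, HSP90AA1, lies on the minus strand of chromosome 14 (chr14:102547075-102606086, hg19). Its sites covered 1155, 110 and 266 bases in the ssRNase lists and 1132, 1166 and 1303 bases in the dsRNase lists. The dsRNase lists were close together and ssRNase replicate 1 fell among them, while the other two ssRNase lists were far lower, so the groups overlapped in bases. As a share of all protected bases, HSP90AA1 held 113, 37.7 and 32.8 bases per 1000000 in the ssRNase lists and 1375, 1191 and 1631 in the dsRNase lists. Here the groups did not overlap, with a ratio of means (dsRNase over ssRNase) of 22.8. That ratio was 39.6 without ssRNase replicate 1.

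The constitutive cytosolic HSP90, HSP90AB1, lies on the plus strand of chromosome 6 (chr6:44214848-44221614, hg19). It covered 940, 122 and 532 bases in the ssRNase lists and 301, 571 and 576 bases in the dsRNase lists, which overlapped fully. Its shares were 92.2, 41.9 and 65.7 bases per 1000000 with ssRNase and 366, 583 and 721 with dsRNase. It was the gene with the smallest share in the dsRNase lists, at 557 ± 179 (SD, n = 3), and its dsRNase range did not reach that of any other of the 6 genes.

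HSPA8, the constitutive cytosolic HSP70, lies on the minus strand of chromosome 11 (chr11:122928200-122932844, hg19) and its introns host small nucleolar RNAs. Sites of these hosted RNAs were not told apart from other sites of the span. Sites in the HSPA8 span covered 1025, 149 and 420 bases in the ssRNase lists and 1154, 1170 and 1310 bases in the dsRNase lists. HSPA8 was the only one of the 6 genes whose dsRNase lists all held more protected bases than any ssRNase list, although those lists were the shorter ones. Of the 31426 features that entered the nuclease comparison, 0.458% had this order in bases. The order needs a site in every dsRNase list, and it was not counted among features with a site in all 6 lists alone. The shares of HSPA8 were 101, 51.1 and 51.8 bases per 1000000 with ssRNase and 1401, 1195 and 1640 with dsRNase, a ratio of means of 20.8.

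HSPA5, the HSP70 of the endoplasmic reticulum, lies on the minus strand of chromosome 9 (chr9:127997132-128003666, hg19). It covered 2187, 796 and 946 bases in the ssRNase lists and 1348, 1376 and 1521 bases in the dsRNase lists. The ssRNase values lay on both sides of the dsRNase values. Its shares were 215, 273 and 117 bases per 1000000 with ssRNase and 1637, 1405 and 1904 with dsRNase. At 1649 ± 249 (SD, n = 3) it had the largest mean dsRNase share of the 6 genes, but its range overlapped those of HSP90AA1, HSPA8 and HSP90B1.

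HSP90B1, the HSP90 of the endoplasmic reticulum, lies on the plus strand of chromosome 12 (chr12:104324189-104341703, hg19). Like HSPA8, it is marked in GENCODE v29 as a host of noncoding RNA. It covered 3077, 478 and 1308 bases in the ssRNase lists and 634, 847 and 1170 bases in the dsRNase lists. The groups overlapped, and the ratio of their means (dsRNase over ssRNase) was 0.545 with all lists and 0.990 without ssRNase replicate 1. Its shares were 302, 164 and 161 bases per 1000000 with ssRNase and 770, 865 and 1464 with dsRNase, a ratio of means of 4.94.

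HSPD1, the mitochondrial chaperonin, lies on the minus strand of chromosome 2 (chr2:198351308-198364651, hg19). It covered 1857, 683 and 797 bases in the ssRNase lists and 925, 721 and 781 bases in the dsRNase lists. The ssRNase values lay above (replicate 1), below (replicate 2) and among (replicate 3) the dsRNase values. Its shares were 182, 234 and 98.4 bases per 1000000 with ssRNase and 1123, 736 and 978 with dsRNase.

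**Figure D1:**
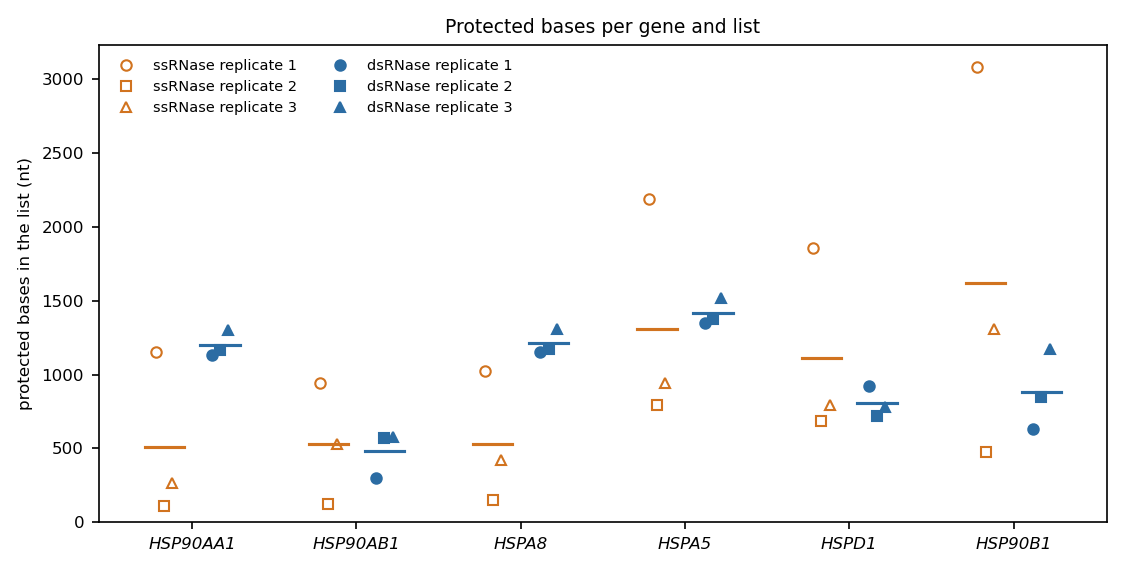
Protected bases (nt, linear axis from 0) of each of the 6 genes in each list, with ssRNase (open, left) and dsRNase (filled, right) for each gene; horizontal bars are means of 3 lists. Only in HSPA8 do all 3 dsRNase lists lie above all 3 ssRNase lists, and ssRNase replicate 1 is the highest ssRNase list for every gene.

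The nuclease comparison was made on shares, with limma on log2(share + 20) over 31426 features, which were the 6 gene spans and stranded windows of 10000 bp elsewhere. A feature needed a site in at least 3 of 6 lists, and differences are ssRNase minus dsRNase. HSP90AA1 differed by -4.25 (SE 0.396, limma adjusted p = 0.00461) and HSPA8 by -4.06 (SE 0.276, limma adjusted p = 0.00453). HSP90AA1 and HSPA8 thus took a far larger share of the dsRNase lists than of the ssRNase lists. HSPA5 followed at -2.97 (SE 0.324, limma adjusted p = 0.00508) and HSP90AB1 at -2.73 (SE 0.342, limma adjusted p = 0.00612). HSPD1 differed by -2.38 (SE 0.340, limma adjusted p = 0.00786) and HSP90B1 by -2.20 (SE 0.355, limma adjusted p = 0.0103). The step from HSPA8 to HSPA5 exceeded both standard errors, and differences between genes were not tested.

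All 6 genes thus passed an adjusted p of 0.05 with a higher share in the dsRNase lists, where 7.03% of all features passed in that direction. That background is higher among features which, like the 6 genes, had a site in all 6 lists. Of 4476 such features 33.9% passed with a higher share in the dsRNase lists, and their median difference was -0.68, against -2.85 for the 6 genes and 0.43 for all features tested. A difference of -2.20 or below, the range of the 6 genes, was found in 217 of the 4476, the 6 genes included. In shares, the 3 dsRNase lists lay above the 3 ssRNase lists for all 6 genes and for 9.56% of the features tested. This order needs a site in every dsRNase list, and it was not counted among the 4476 features alone.

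Strand moved with the nuclease over the whole lists. The minus strand, which carries 4 of the 6 genes, held 56.6%, 58.8% and 58.1% of all sites in the ssRNase lists and 78.4%, 63.2% and 76.9% in the dsRNase lists. With shares scaled within each strand, the differences ran from -4.11 for HSP90AA1 to -2.13 for HSPD1 and all 6 genes passed (highest limma adjusted p = 0.00745). Of all 31426 features, 2049 passed there with a higher share in the dsRNase lists. With equal numbers of sites drawn per strand 5 of the 6 genes passed, and HSP90AB1 did not (difference -2.90, limma adjusted p = 0.0633). In this single random draw 11794 features were tested, and 721 of them passed with a higher share in the dsRNase lists.

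Leaving out a ssRNase list and filtering the features again ended some calls. Without ssRNase replicate 1 HSPD1 and HSP90B1 fell short, with differences of -2.46 and -2.47 (limma adjusted p = 0.0841 and 0.0752). Without ssRNase replicate 2 HSP90AB1, HSPD1 and HSP90B1 fell short, with differences of -2.51, -2.62 and -2.07 (limma adjusted p = 0.12, 0.108 and 0.218). Without ssRNase replicate 3 the same 3 genes fell short, with differences of -2.74, -2.07 and -2.06 (limma adjusted p = 0.0812, 0.171 and 0.188), and so did HSPA5 at -2.66 (limma adjusted p = 0.0797). With the features of the full fit kept, an alternative added later whose features were still picked with the omitted list, the differences were the same and all 6 genes passed.

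**Figure D2:**
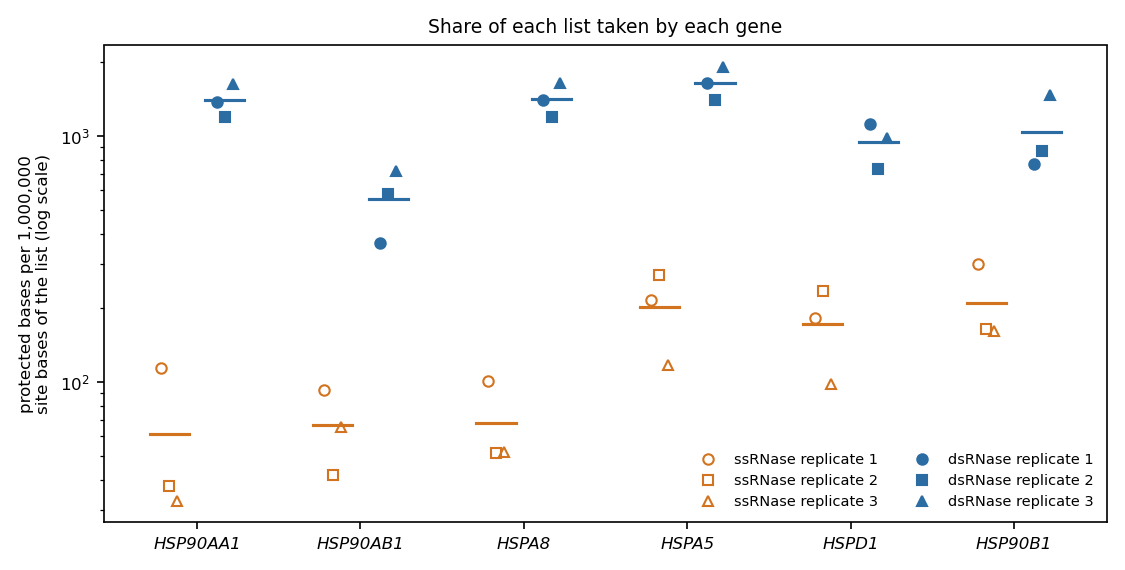
Share of each list, as protected bases per 1000000 site bases (log axis), of the 6 genes with ssRNase (open, left) and dsRNase (filled, right); horizontal bars are means of 3 lists. For each gene the 3 dsRNase lists lie above the 3 ssRNase lists, with ratios of means of 22.8 for HSP90AA1 and 20.8 for HSPA8.

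Per length of gene span, introns included, HSPA8 had 114 ± 96.6 protected bases per kb of span with ssRNase, against 261 ± 18.5 with dsRNase (SD, n = 3 each), the highest dsRNase density of the 6 genes. HSPA5 had 200 ± 117 per kb with ssRNase, against 217 ± 14.2 with dsRNase (SD, n = 3 each). In the dsRNase lists the ranges of HSPA8 and HSPA5 did not overlap each other or those of the other 4 genes. HSP90AB1, HSPD1 and HSP90B1 had 78.5 ± 60.4, 83.4 ± 48.5 and 92.5 ± 75.8 per kb with ssRNase, against 71.3 ± 23.3, 60.6 ± 7.86 and 50.5 ± 15.4 per kb with dsRNase (SD, n = 3 each), and could not be put in order beyond their spread. HSP90AA1 was lowest, with 8.65 ± 9.55 with ssRNase, against 20.3 ± 1.53 with dsRNase (SD, n = 3 each), over a span of 59012 nt of which most held no site. In the ssRNase lists the ranges of neighbouring genes overlapped from HSPA5 down to HSP90AA1.

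Where along each span the protected bases lay differed from gene to gene. Each span was divided into 10 equal segments, numbered from the 5′ end. In HSP90AA1 the last 10000 nt toward the 3′ end held 96.9%, 100% and 86.8% of the protected bases of the ssRNase lists and 100% of those of every dsRNase list. With these 10000 nt taken as a feature of their own, the nuclease difference was -4.30 (limma adjusted p = 0.00462). HSPA5 had a block at its 5′ end, where segment 1 had 292 ± 43.3 protected bases in the ssRNase lists, against 290 ± 63.4 in the dsRNase lists (SD, n = 3 each). Segment 2 of HSPA5 had 85.7 ± 92.7 in the ssRNase lists, against 65.0 ± 24.2 in the dsRNase lists. Further blocks of HSPA5 lay in segments 4, 5, 7 and 8. Their means in the dsRNase lists were 303 ± 13.6, 195 ± 28.0, 224 ± 24.5 and 242 ± 31.6 bases (SD, n = 3). The ssRNase means of these segments were 238 ± 220, 106 ± 84.3, 203 ± 79.2 and 180 ± 144 bases (SD, n = 3).

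In HSPA8 segment 1 had 35.7 ± 36.0 protected bases in the ssRNase lists (SD, n = 3) and none in any dsRNase list. Protection from dsRNase was densest in its segments 5, 6 and 8. Segment 5 had 68.3 ± 47.1 bases in the ssRNase lists, against 210 ± 23.3 in the dsRNase lists, and segment 6 had 131 ± 66.6 bases with ssRNase, against 216 ± 25.5 with dsRNase (SD, n = 3 each). In HSPD1 segment 3 had 217 ± 63.7 bases in the ssRNase lists, against 7.67 ± 7.09 in the dsRNase lists (SD, n = 3 each), so it was protected from ssRNase in every list and nearly free of dsRNase sites. Segment 9 of HSPD1 had 130 ± 168 bases in the ssRNase lists, against 217 ± 56.7 in the dsRNase lists (SD, n = 3 each). HSP90B1 had its largest ssRNase mean in segment 8, at 326 ± 271 bases, and its largest dsRNase mean in segment 7, at 176 ± 25.2 bases (SD, n = 3 each). Exons were not assigned, since no annotation of hg19 was used here. HSP90B1 and HSPD1 had 4154 and 2825 bases protected in at least 1 list, against 2858 and 2455 nt in their principal mRNAs. Part of their protected bases thus lay outside these mRNAs.

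**Figure D3:**
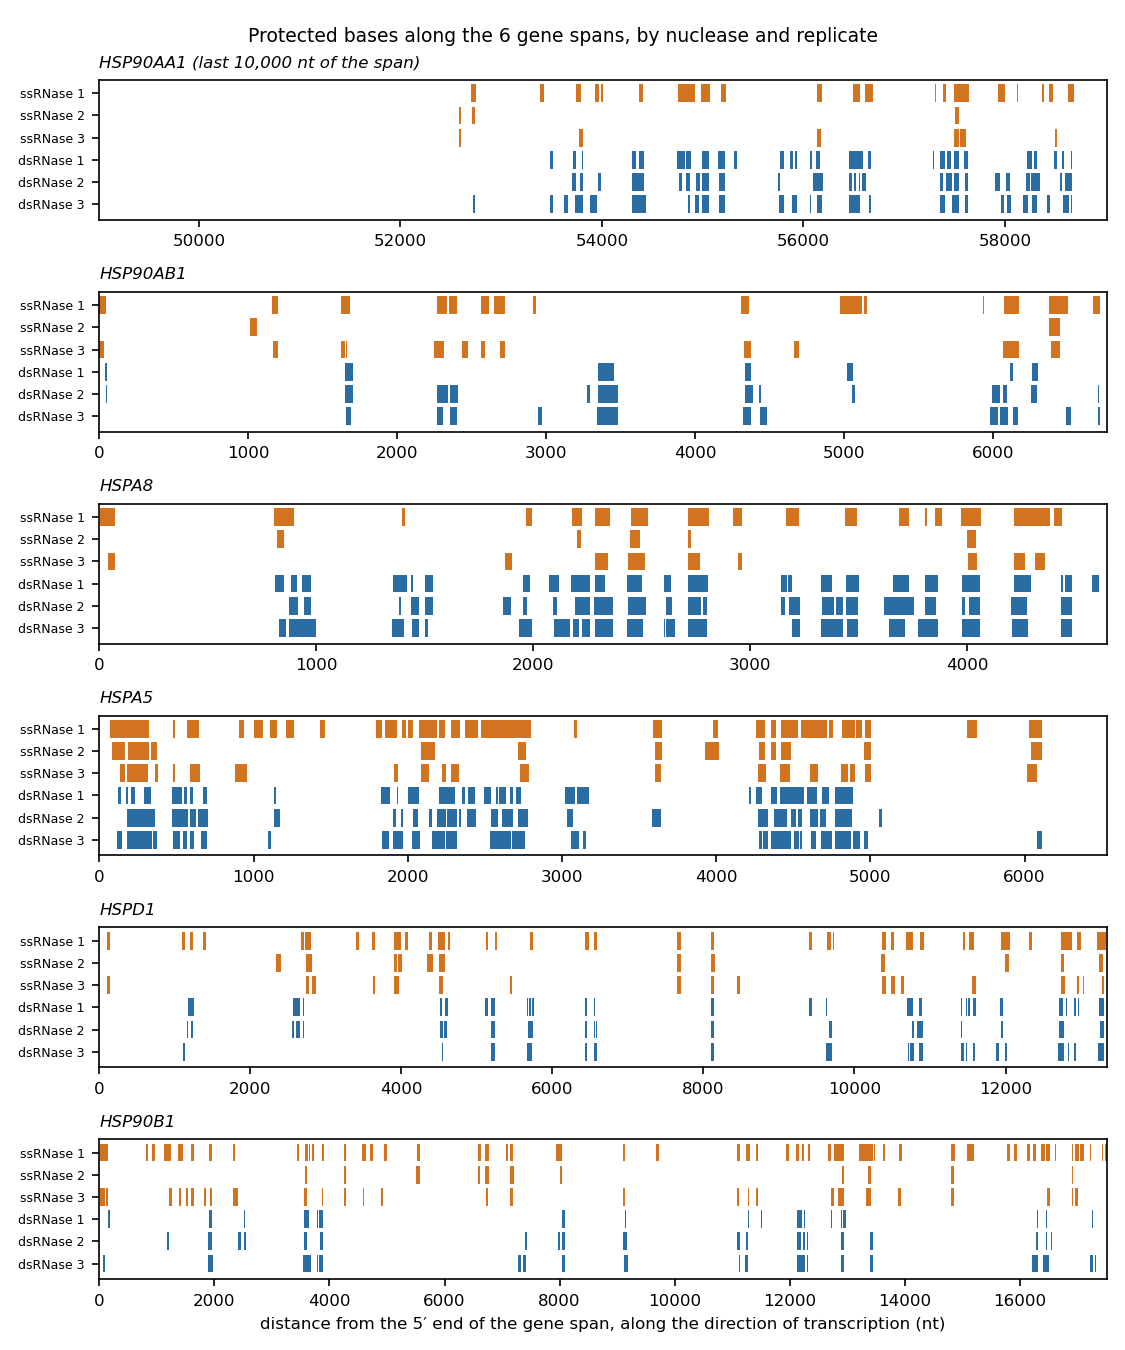
Protected bases along the 6 gene spans, as distance from the 5′ end of the span (nt); each row is a list, ssRNase replicates 1 to 3 above dsRNase replicates 1 to 3, and for HSP90AA1 the last 10000 nt are drawn. Blocks at the 5′ end of HSPA5 appear in all 6 rows, while dsRNase blocks of HSP90AA1 and HSPA8 recur from row to row with few ssRNase blocks beside them in replicates 2 and 3.

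Some short stretches were protected in all 6 lists, by both nucleases and in every replicate. Such bases numbered 107 in HSPA5, 84 in HSPA8, 71 in HSPD1, 43 in HSP90AA1, 37 in HSP90B1 and 0 in HSP90AB1. The longest stretch was 39 nt in HSPA8 (chr11:122930354-122930392), and one of 38 nt in HSP90AA1 (chr14:102548548-102548585) began 57502 nt from the 5′ end of the span and ended 1474 nt short of its 3′ end. In HSPA5 the longest was 33 nt (chr9:127999210-127999242), and 2 of 27 nt lay in the 5′ block (chr9:128003434-128003460 and chr9:128003352-128003378). HSPD1 had 31 nt (chr2:198356515-198356545) and HSP90B1 19 nt (chr12:104327771-104327789). In HSP90AB1 no base was in more than 5 lists, and the longest stretch in 5 was 25 nt (chr6:44219187-44219211).

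Other stretches were found by a single nuclease in all of its replicates, an observation made after the maps had been seen. In HSP90AB1 a run of 109 nt (chr6:44218196-44218304) was covered in all 3 dsRNase lists and in no ssRNase list, and it lay within the best-scoring dsRNase site of the gene in each list. It was the longest such run in the 6 genes. The runs of this kind came to 213 bases in HSP90AA1, 306 in HSPA8, 214 in HSPA5, 159 in HSP90B1, 120 in HSP90AB1 and 99 in HSPD1. The reverse, bases in all 3 ssRNase lists and no dsRNase list, came to 231 bases in HSP90B1, 192 in HSPD1, 134 in HSPA5 and 54 in HSP90AB1. HSP90AA1 and HSPA8 had 0 bases of the reverse kind. The small number of bases in ssRNase replicate 2 limits this count, since only 110 and 149 bases of these genes were protected there.

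Counted over bases protected in at least 1 list, the 6 genes again fell into different mixtures. Over the whole lists 87.1% of such bases were seen with ssRNase alone, 8.44% with both nucleases and 4.49% with dsRNase alone, and each of the 6 genes had a smaller part seen with ssRNase alone. The whole lists also hold regions that, unlike the 6 genes, lack a site in some lists. In HSP90B1 62.1% of 4154 such bases were seen with ssRNase alone, 18.8% with both nucleases and 19.1% with dsRNase alone. HSPD1 and HSP90AB1 had 51.5% and 46.5% seen with ssRNase alone. HSPA8 and HSP90AA1 were at the other end, with 15.0% and 17.6% seen with ssRNase alone and 45.1% and 48.6% with dsRNase alone. HSPA5 stood apart with 50.4% of its 3026 protected bases seen with both nucleases. HSPA5 and HSPA8 were also the genes with most of their span protected in at least 1 list, at 46.3% and 42.1%.

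**Figure D4:**
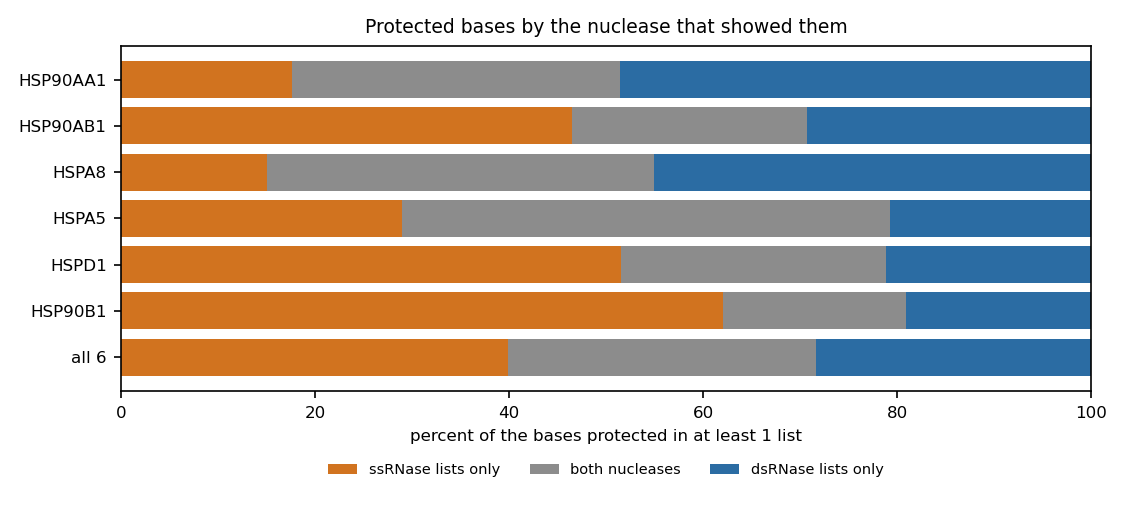
Percent of the bases protected in at least 1 of 6 lists that were seen with ssRNase alone, with both nucleases, or with dsRNase alone, for each gene and for the 6 genes summed. The share seen with ssRNase alone runs from 15.0% in HSPA8 to 62.1% in HSP90B1.

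Most dsRNase sites of the 6 genes were seen in more than 1 dsRNase replicate. Recurrence is the percent of sites that share at least 1 nt, strand included, with a site of any other list in question. The values for all sites include regions that, unlike the 6 genes, lack a site in some lists. Within dsRNase it was 89.1%, 89.3% and 85.7% for the 6 genes in replicates 1, 2 and 3, against 51.4%, 47.9% and 54.9% for all sites. Within ssRNase it was 46.2%, 95.8% and 85.6% for the 6 genes and 52.8%, 89.9% and 62.2% for all sites. The ssRNase values of the 6 genes lay on both sides of those of all sites, and the shortest list, replicate 2, had the highest recurrence in both. Per gene, summed over replicates, dsRNase recurrence ran from 81.7% of 71 sites in HSP90B1 to 97.3% of 75 sites in HSPA8. With ssRNase it ran from 44.1% of 34 sites in HSP90AA1 to 77.8% of 63 sites in HSPA5.

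Recurrence between nucleases lay above that of all sites for the ssRNase sites of the 6 genes, and near it for their dsRNase sites. Of the ssRNase sites of the 6 genes 60.3%, 58.3% and 53.6% in replicates 1, 2 and 3 overlapped a dsRNase site, against 15.1%, 23.2% and 15.4% of all ssRNase sites. In the other direction 71.5%, 71.4% and 77.1% of the dsRNase sites of the 6 genes overlapped a ssRNase site, against 73.9%, 75.5% and 76.6% of all dsRNase sites. By gene, the share of ssRNase sites found again with dsRNase was 85.7% in HSPA5, 81.8% in HSPA8, 73.5% in HSP90AA1, 35 of 70 sites in HSPD1, 46.7% in HSP90AB1 and 36.4% in HSP90B1. Without ssRNase replicate 1, the longest list, the dsRNase sites of the 6 genes found with ssRNase came to 36.2% on average, against 73.4% with it. The value of all dsRNase sites without that list is not given here, so nearness to all sites was seen with every list only. These comparisons carry no test, since sites of a list are not replicates.

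**Figure D5:**
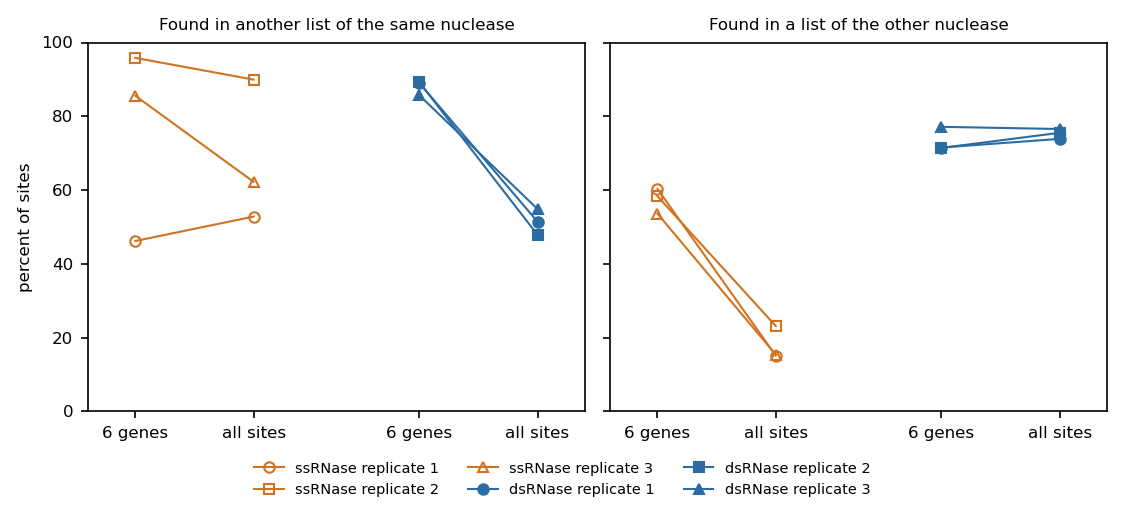
Percent of sites that recur within their own nuclease (left) or with the other nuclease (right), with lines from the 6 genes to all sites of the same list; ssRNase is open and dsRNase filled. Within dsRNase the 6 genes lie between 85.7% and 89.3% and all sites between 47.9% and 54.9%; between nucleases the gap is on the ssRNase side.

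Pooled over the 6 genes, dsRNase sites were somewhat longer and ranked higher than the middle of their lists, but not in every gene. The median site length was 46, 43.5 and 40 nt in the ssRNase lists, against 43, 44 and 42 nt for all sites. In the dsRNase lists it was 35, 36.5 and 42 nt, against 33, 33 and 34 nt for all sites. HSPD1 lay below all sites in each dsRNase list, at 31, 30.5 and 33.5 nt. HSP90B1 had 22, 34 and 39.5 nt, and the remaining genes lay above all sites in each dsRNase list. The authors' score, used only as a rank within its list, put the median site of the 6 genes at percentile 64.7, 48.9 and 61.2 with ssRNase and 73.7, 74.5 and 72.4 with dsRNase (100 is the highest score; all sites have a median near 50 by construction). The median percentile of HSPA8 sites was 60.2 ± 29.8 with ssRNase, against 85.4 ± 1.95 with dsRNase (SD, n = 3 each), the highest dsRNase rank of the 6 genes. HSP90AB1 had 55.0 ± 22.3 with ssRNase, against 47.7 ± 3.54 with dsRNase (SD, n = 3 each), the lowest dsRNase rank. The best-ranked single site of the 6 genes in its list was in HSPA5 for each ssRNase list (ranks 615, 2197 and 751) and for dsRNase replicates 2 and 3 (ranks 130 and 167), and in HSPA8 for dsRNase replicate 1 (rank 232). The longest single site was 263 nt, in HSPA5 with ssRNase replicate 1 (chr9:128000869-128001131).

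In the authors' merged list over both nucleases, which carries no replicate error, the 6 genes had 215 merged sites. Of these 39.5% came from ssRNase alone, 42.8% from both nucleases and 17.7% from dsRNase alone, against 83.4%, 12.01% and 4.57% of the 293016 merged sites of the whole list. The whole list was not narrowed to regions which, like the 6 genes, had sites in all 6 lists. Sites with all 6 lists behind them numbered 16 (7.44%, against 0.696% of the whole list). HSPA5 had 5 of them, HSPD1 had 4, HSPA8 and HSP90B1 had 3 each, HSP90AA1 had 1 and HSP90AB1 had 0. The longest lay in HSPA5 and joined 25 replicate sites over 402 nt (chr9:127998911-127999312). A merged site spans every replicate site it joins, so not all of these bases were protected in each list.

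On the strand opposite to the genes there was almost nothing. The 6 spans held 5 opposite-strand sites in all, 2, 1 and 2 in the ssRNase lists and 0 in each dsRNase list, and all lay within HSPA5 near its 3′ end.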

How the data were processed

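HEK293T libraries were made after cross-linking with 1% formaldehyde for 10 min, quenching with 125 mM glycine, and reversal at 65 °C for 2 h, and protein was removed from digestion controls with 1% SDS and proteinase K, per the labels' protocols. A duplex-specific nuclease step, which lowers abundant sequences, evened out the libraries, per the labels' protocols. The submitters' processing notes name cutadapt 0.9.5, TopHat2 2.0.9 and hg19. Sites are CSAR calls at a false discovery rate of 5%, per the names of the deposited lists. The score of each site is the authors' deposited value. No label or header states its scale, and it served only as a rank within its list. Read depth is unknown.

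Genes and lists of comparisons were chosen with earlier results of these data known. Positions were read as 1-based and inclusive. The reference at hand was GENCODE v29 (GRCh38), another build, so only its names and transcript sequences were used, by gene name, and no coordinates were converted. Other chaperone genes were not analysed here. All 6 genes, their longest stretches shared by most lists, longest and best-scoring sites and span segments were named by rule.

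Shares were protected bases per 1000000 site bases of a list. Windows of 10000 bp, by site midpoint and without the sites of the 6 genes, and the 6 spans were fitted with limma 3.58.1 in R 4.3.3 (lmFit, eBayes), with a pseudocount of 20, a site in at least 3 of 6 lists, and Benjamini-Hochberg adjustment over all features. On this scale the change of a low value is understated. Other measures were described without a test. Python 3.11.15, numpy 2.4.6, pandas 2.3.3 and matplotlib 3.10.9 were used. The overlap count and the fit were tested on simulated data, where the overlap count made no error and the fit left many altered windows uncalled. Alternatives covered pseudocount, filter, scaling, window size, score, overlap, strand, a replicate block and each list left out.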

Additional observations from a re-analysis of the deposited data

How the results depend on the processing

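No alternative reversed the direction of any of the 6 genes. Their differences ran from -4.75 to -3.24 for HSP90AA1, -4.71 to -3.17 for HSPA8, -3.21 to -2.13 for HSPA5, -3.56 to -1.95 for HSP90AB1, -2.83 to -1.55 for HSPD1 and -2.90 to -1.36 for HSP90B1 over 25 alternatives each. Equal replicate numbers showed no pairing of the lists (correlation of same-numbered deviations -0.0632 to 0.0176), which 3 lists of each nuclease cannot exclude. With the replicate block 0 features and 0 of the 6 genes passed in limma. In that limma fit 11361 features and all 6 genes had an unadjusted p below 0.05 (adjusted p 0.0515 to 0.0535 for the genes). Leaving out a list, with the filter applied again, gave 42 to 10074 calls, 42 to 2455 of them higher with dsRNase, and 2 to 6 of the 6 genes; the low ends came without a ssRNase list, when features with ssRNase sites alone fail the filter. With the feature set of the full fit kept instead, an alternative added after the data had been seen, all 6 genes passed each time, and calls higher with dsRNase came to 1466 without ssRNase replicate 3.

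Calls numbered 10558 in all (8349 higher with ssRNase, 2209 with dsRNase). They were 6978 with a pseudocount of 100, 749 (618 higher with dsRNase) among features with sites of both nucleases, 1137 (416 higher with ssRNase, 721 with dsRNase) with equal numbers of sites per strand, and 11674 higher with ssRNase against 1127 with dsRNase under median scaling, which moved the median feature by 0.32 and left the genes between -3.50 and -1.36. HSP90AB1 did not pass with equal numbers per strand (limma adjusted p = 0.0633).

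Requiring an overlap of 50% of the site lowered recurrence of the genes' sites within dsRNase from a mean of 88.0% to 76.8%, of ssRNase sites with dsRNase to 43.1% and of dsRNase sites with ssRNase to 54.7%. With the better-scoring 50% of sites, recurrence within dsRNase was 85.2%, that of dsRNase sites with ssRNase 62.6%, and median lengths were 51.0 nt with ssRNase and 43.3 nt with dsRNase. With sites of 20 nt or more the median dsRNase score percentile was 78.6. Leaving out a list gave 73.7% to 74.7% within dsRNase, 52.0% to 59.3% for ssRNase sites with dsRNase and 36.2% to 74.3% for dsRNase sites with ssRNase. The cause of these moves was not tested. Without read counts, no limit of detection can be given for bases outside sites.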

Other observations

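The spans of the 6 genes held 5 sites on the opposite strand, all in HSPA5 and all in ssRNase lists, at 2 places that the lists called repeatedly. At the first, sites at chr9:127997543-127997600, chr9:127997545-127997595 and chr9:127997546-127997614 (plus strand, hg19) came from ssRNase replicates 1, 2 and 3, and their midpoints were 6086 to 6096 nt from the 5′ end of HSPA5. At the second, sites at chr9:127997701-127997745 and chr9:127997704-127997740 came from ssRNase replicates 1 and 3. No dsRNase list had a site there. RABEPK is the nearest coding gene on the opposite strand at the 3′ side of HSPA5 in GENCODE v29, and which transcript these sites belong to was not tested.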
